A study of Mus musculus with 2 samples.

Results

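The 9 genes described here encode the pore-forming subunits of the AMPA receptors (Gria1, Gria2, Gria3 and Gria4) and of the kainate receptors (Grik1, Grik2, Grik3, Grik4 and Grik5) of the mouse. They were taken by symbol from a single-cell table of the hippocampus that lists 30223 genes, and all 9 were found. The choice follows gene family and no measured value sets it, but it was made with earlier results of these data known.

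AMPA and kainate receptors are cation channels opened by glutamate, each built from a tetramer of subunits. AMPA receptors carry most fast excitatory transmission, and the GluA2 subunit made from Gria2 limits their calcium entry once its transcript has been edited. Kainate receptors combine subunits that can form channels alone (GluK1 to GluK3, from Grik1, Grik2 and Grik3) with the high-affinity subunits GluK4 and GluK5 (from Grik4 and Grik5), and are known in the hippocampus for their place at the synapses of mossy fibres on CA3 pyramidal neurons and in interneurons.

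The study compared hippocampal cells of wild-type control mice and of mice homozygous for the knock-in allele Pigv341E, both of strain C57Bl.6/J; the age is not given in the sources used here. Pigv acts in the synthesis of glycosylphosphatidylinositol, the lipid anchor of many surface proteins, by adding a mannose. Cells of 8 hippocampi from 4 mice of a genotype were separated by mechanical means at low temperature and went into 1 library, so the 2 libraries have no replicates, genotype and library cannot be told apart, and no p-value or replicate error is given. There were 7094 wild-type and 8836 knock-in cells, and 28 cell barcodes were found in both libraries.

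The deposited values are whole numbers corrected for depth, so the sequencing depth of a cell is unknown. Their total per cell lay between 4846 and 14501, with medians of 8631 (wild-type) and 9608 (knock-in). The level of a gene in a class is its part of the summed values there, expressed per 10000. Levels are given for the wild-type library first and the knock-in library second, and one class is called above another only where both of its libraries exceeded both libraries of the other. The values are not divided by transcript length, so each subunit is compared with itself across classes and not with the other subunits.

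Cells were grouped into 46 clusters without the subunits or their partners among the clustering genes, and clusters were named from marker genes, hence the ending "-like". Both libraries gave at least 50 cells to 13 classes, of which 7 were neurons. CA1 pyramidal-like cells numbered 867 and 1038, CA3 pyramidal-like cells 321 and 357, dentate granule-like cells 1401 and 1387, and interneuron-like cells 155 and 255. The class called other excitatory neurons, with 569 and 1077 cells, holds 5 clusters with excitatory markers but no name for a subfield. Markers of the hippocampal subfields were thus present in the labelled tissue, and 10 clusters stayed unnamed.

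The subunits share a stretch of their pore that was printed here because one of its codons decides a property of the channel. The codon in capitals encodes glutamine in the genome, and in Gria2, Grik1 and Grik2 it is the Q/R site, where enzymes of the ADAR family are known to edit the transcript so that arginine is read. The stretches are 51 bases of spliced transcript, 5′ to 3′, from the GENCODE M21 annotation of GRCm38.
Gria1: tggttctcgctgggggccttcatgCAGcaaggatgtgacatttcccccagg
Gria2: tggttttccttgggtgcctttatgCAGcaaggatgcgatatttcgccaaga
Gria3: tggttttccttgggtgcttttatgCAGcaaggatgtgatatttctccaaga
Gria4: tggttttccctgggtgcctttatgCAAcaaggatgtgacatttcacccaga
Grik1: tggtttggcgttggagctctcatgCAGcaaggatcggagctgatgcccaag
Grik2: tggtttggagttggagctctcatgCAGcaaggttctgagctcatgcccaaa
Grik3: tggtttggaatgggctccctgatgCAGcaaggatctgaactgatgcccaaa
Grik4: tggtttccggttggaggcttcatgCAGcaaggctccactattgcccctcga
Grik5: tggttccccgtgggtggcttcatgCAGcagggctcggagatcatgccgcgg
The codon is CAG in 8 subunits and CAA in Gria4. Of the 51 bases, 48 in Gria3, 45 in Gria4 and 41 in Gria1 were identical to Gria2, against 32 to 36 in the 5 kainate subunits. In Gria2 the codon lies on the minus strand at chr3:80706911-80706913, in exon 11 of the transcript used, in Grik1 at chr16:87940542-87940544 and in Grik2 at chr10:49244329-49244331, both in exon 13 and on the minus strand. Editing itself was not measured here.

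On GRCm38 the AMPA subunit genes span chr11:57011387-57330244 (Gria1, plus strand), chr3:80681450-80802835 (Gria2, minus), chrX:41400854-41678601 (Gria3, plus) and chr9:4417896-4796234 (Gria4, minus). The kainate subunit genes span chr16:87895900-88290265 (Grik1, minus), chr10:49094833-49788766 (Grik2, minus), chr4:125490700-125714173 (Grik3, plus), chr9:42518135-42944493 (Grik4, minus) and chr7:25009849-25072346 (Grik5, minus). No annotated gene that overlaps them has a row in the table.

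The order of the classes was much the same in both libraries. Each subunit except Gria2 had the same highest class in both, which is 8 of 9. Spearman's rho between the libraries' ranks of the 13 classes ran from 0.835 for Grik1 to 0.995 for Grik2, as a description of classes that share libraries. Of the 12 steps between neighbouring classes in each subunit's order, between 5 and 9 were separated in both libraries. None of these values was set beside those of all genes, so they do not single out the subunits.

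Gria1 encodes GluA1, a subunit of the AMPA receptors that are moved into synapses during potentiation. Its level was highest in CA1 pyramidal-like cells, at 29.98 and 28.2 per 10000, followed by dentate granule-like cells at 26.1 and 23.8. CA3 pyramidal-like cells had 21.9 and 20.7, and interneuron-like cells 21.3 and 19.7. The CA1, dentate and CA3 classes were separated from each other, whereas the CA3 and interneuron classes overlapped. Every CA1 pyramidal-like cell of both libraries had a value of at least 2, with medians of 29 and 27. Other excitatory neurons had 8.72 and 8.29, and 4.24 and 6.21 without the 1 of their 5 clusters that was richest in Gria1.

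Gria2, the source of the subunit that limits calcium entry, was spread more evenly over neurons. It reached 14.7 and 13.5 per 10000 in immature neuron-like cells, 13.7 and 14.5 in CA1 pyramidal-like cells, 12.9 and 12.3 in dentate granule-like cells and 11.6 and 12.4 in CA3 pyramidal-like cells. The immature and CA1 classes overlapped, as did the dentate and CA3 classes. Interneuron-like cells had 6.06 and 6.08, and the CA3 class stood 1.92-fold and 2.04-fold above them.

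Gria3, which encodes GluA3, was again highest in CA1 pyramidal-like cells, at 8.18 and 7.73 per 10000. The CA1 class stood 1.64-fold and 1.53-fold above the CA3 class and 1.51-fold and 1.52-fold above the dentate class. Other excitatory neurons came second, at 6.63 and 7.50. In the knock-in library they were above CA1 without the cluster led by Unc5d (8.14), Tshz2 (8.03) or Sgcz (7.82). They were not above it without the cluster led by Gm28928 and Cdh18 (6.69) or the one richest in Gria1 (6.90). In the wild-type library they stayed below CA1 whichever cluster was left out. Dentate granule-like (5.43 and 5.09), oligodendrocyte precursor-like (5.52 and 4.94) and CA3 pyramidal-like cells (5.004 and 5.07) followed without separation between neighbours. Immature neuron-like cells had only 2.06 and 2.16.

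Gria4, the source of GluA4, a subunit with fast kinetics, had another order. It was highest in interneuron-like cells, at 14.4 and 15.2 per 10000, and stood 8.79-fold and 6.91-fold above the CA1 class and 10.9-fold and 11.5-fold above the dentate class. Cajal-Retzius-like cells had 9.89 and 10.3, oligodendrocyte precursor-like cells 7.76 and 8.32, and other excitatory neurons 5.62 and 7.30. These leading classes were each separated from the next in both libraries.

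**Figure D1:**
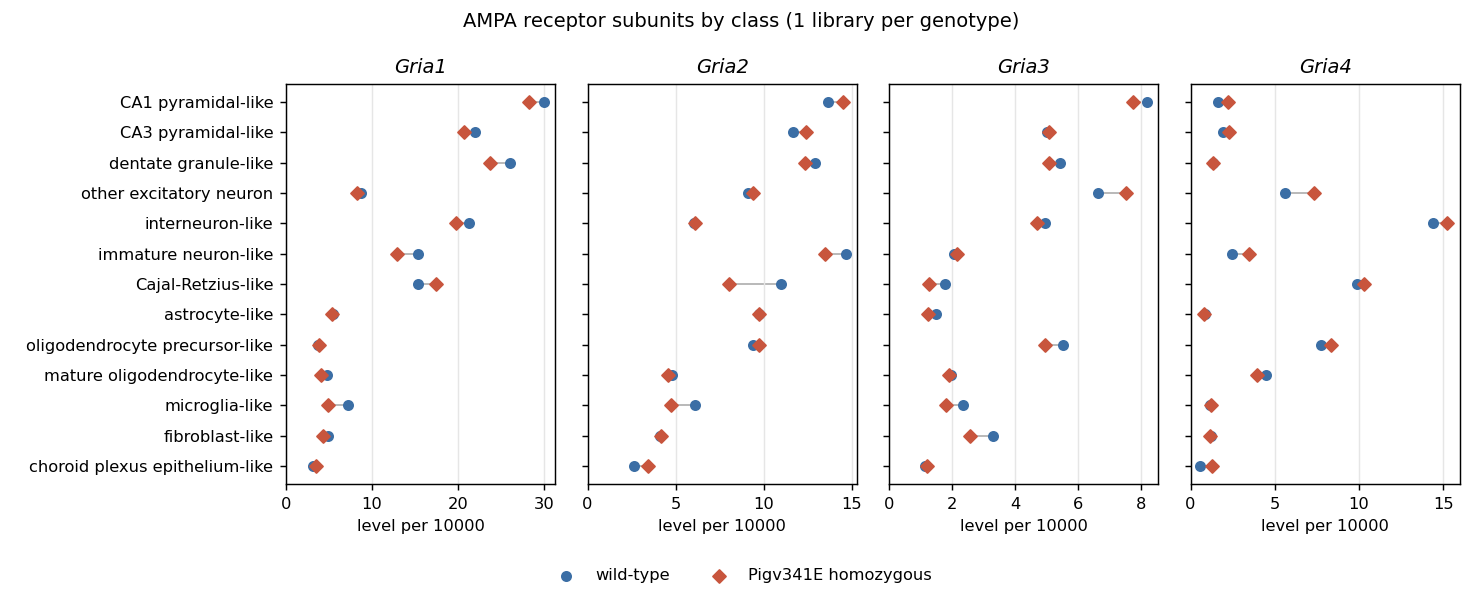
Level per 10000 (horizontal axis, a separate linear scale for each gene) of the 4 AMPA receptor subunits in the 13 classes, with a circle for the wild-type and a diamond for the knock-in library. Gria1 and Gria3 peaked in CA1 pyramidal-like cells and Gria4 in interneuron-like cells, where both symbols lie beyond both symbols of every other class. For Gria3 in the knock-in library this depended on the clusters held by other excitatory neurons. Some pairs of symbols lie further apart and cross neighbouring classes, such as Gria2 in Cajal-Retzius-like cells (10.96 and 8.04) and Gria1 in microglia-like cells (7.17 and 4.83).

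Among the kainate subunits that form channels alone, Grik1 was the most restricted. Interneuron-like cells had 18.5 and 20.6 per 10000, with a value above 0 in 92.9% of the 155 wild-type cells (exact Clopper-Pearson interval 87.7 to 96.4%) and in 92.2% of the 255 knock-in cells (88.1 to 95.1%). These intervals cover counting error only. CA3 pyramidal-like cells had 0.0348 and 0.0397, CA1 pyramidal-like cells 0.0538 and 0.0611, and dentate granule-like cells 0.0689 and 0.0737. The interneuron class stood 344-fold and 338-fold above the CA1 class, and 4.15% and 5.40% of CA1 pyramidal-like cells had a value above 0. Median totals were similar in the interneuron (10138 and 10253) and CA1 classes (9951 and 9988). Of the glia, oligodendrocyte precursor-like cells (2.42 and 3.04) and mature oligodendrocyte-like cells (2.52 and 2.43) carried Grik1, while astrocyte-like cells had 0.338 and 0.341.

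Grik2 was the most widely spread of these subunits. It was highest in interneuron-like cells, at 15.9 and 15.7 per 10000, just above dentate granule-like cells at 15.7 and 13.98. Immature neuron-like cells (14.02 and 12.5) and mature oligodendrocyte-like cells (12.9 and 12.04) were not separated from their neighbours above. Between subfields the dentate class stood 1.64-fold and 1.43-fold above the CA3 class (9.56 and 9.75), which stood 1.72-fold and 1.74-fold above the CA1 class (5.56 and 5.61). Cajal-Retzius-like cells had 1.84 and 1.95, far below the other neurons.

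Grik3 was low throughout, with its highest levels in other excitatory neurons, at 2.77 and 2.71 per 10000. It reached 1.94 and 1.49 in interneurons, 1.89 and 1.68 in precursors of oligodendrocytes and 1.13 and 0.886 in microglia. Without the cluster led by Gm28928 and Cdh18, other excitatory neurons had 2.10 and 1.66, no longer above the precursors in the knock-in library. Pyramidal cells had little of it, at 0.119 and 0.131 in CA1 and 0.0695 and 0.0738 in CA3. Dentate granule-like cells stood 9.82-fold and 6.09-fold above the CA1 class, at 1.17 and 0.797.

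The high-affinity subunit gene Grik4 marked CA3. Its level there was 16.04 and 16.7 per 10000, against 3.85 and 4.05 in dentate granule-like cells and 1.27 and 1.29 in CA1 pyramidal-like cells, so that CA3 stood 4.16-fold and 4.12-fold above the dentate class and 12.7-fold and 12.9-fold above CA1. The median CA3 pyramidal-like cell had a value of 16 and 17, and 99.7% and 99.4% of these cells were above 0. In the CA1 class 47.3% and 50.1% of cells were above 0, with medians of 0 and 1. Microglia-like cells were above 0 in 63.6% and 50.2% but at 2 or more in only 8.44% and 10.1%. Of CA3 pyramidal-like cells, 99.1% and 97.8% were at 2 or more. Median totals were 7390 and 7799 in microglia-like against 9908 and 9919 in CA3 pyramidal-like cells. A value above 0 thus did not set CA1 pyramidal-like cells apart from microglia-like cells, whose Grik4 level was 1.19 and 0.927 per 10000. The share of RNA from other cells in these low levels was not tested. Immature neuron-like (5.85 and 4.89) and oligodendrocyte precursor-like cells (5.38 and 5.11) came next after CA3 and overlapped.

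Grik5, the other high-affinity subunit gene, was also highest in CA3 pyramidal-like cells but far more even, at 2.69 and 2.31 per 10000. CA1 pyramidal-like cells (2.02 and 1.93) and dentate granule-like cells (2.01 and 1.91) did not separate, and CA3 stood 1.33-fold and 1.20-fold above CA1. Interneuron-like cells had 1.22 in both libraries.

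**Figure D2:**
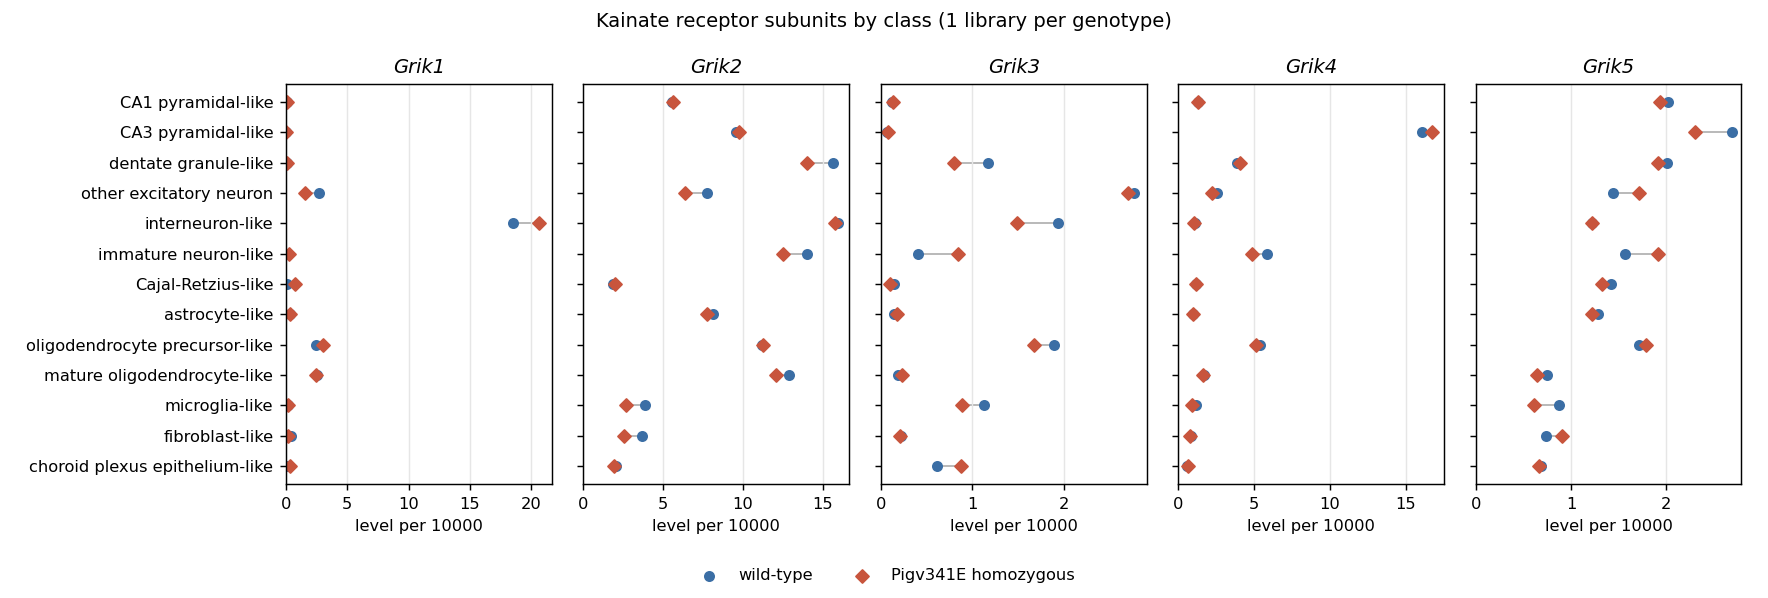
Level per 10000 (horizontal axis, a separate linear scale for each gene) of the 5 kainate receptor subunits in the 13 classes, with a circle for the wild-type and a diamond for the knock-in library. Grik1 stands out in interneuron-like cells (18.5 and 20.6) and Grik4 in CA3 pyramidal-like cells (16.04 and 16.7), while Grik2 and Grik5 are spread over many classes.

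The make-up of each family was compared between classes as the share of a subunit in the summed level of its family. These shares are not molar, since values are not divided by length, but the same subunit can be followed across classes. Gria2 made up 25.6% and 27.5% of the AMPA sum in CA1, 28.7% and 30.6% in CA3 and 28.2% and 29.0% in dentate granule-like cells. In interneuron-like cells it made up 12.98% and 13.3%, and Gria4 30.8% and 33.3%, against 3.06% and 4.19% for Gria4 in CA1. Immature neuron-like cells, at 42.4% and 42.1%, and astrocyte-like cells, at 55.7% and 56.6%, had the larger Gria2 shares. The summed AMPA level was 53.5 and 52.6 per 10000 in CA1, 46.7 and 45.8 in interneuron-like cells and 40.5 in CA3 in both libraries. The interneuron sum is an average over unlike types: 67.7 and 61.1 in the Lhx6 type, above CA1, and 26.2 and 25.2 in the Adarb2 type, below CA3. The Gria2 share also differed between these types. It was 7.75% and 10.1% in the Lhx6 type and 29.2% and 29.7% in the Adarb2 type, close to the CA3 and dentate classes. Interneuron-like cells in neither type had a share of 14.4% and 13.3%.

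The kainate make-up set the subfields apart. Grik4 made up 56.5% and 57.9% of the kainate sum in CA3, 16.9% and 19.5% in dentate granule-like cells, 14.03% and 14.3% in CA1 and 2.88% and 2.503% in interneuron-like cells. Grik2 led in dentate granule-like cells, at 68.8% and 67.2%, and in CA1, at 61.7% and 62.2%. Grik1 accounted for 47.8% and 51.5% in interneuron-like cells and for 0.122% and 0.138% in CA3. The summed kainate level was 38.7 and 40.1 per 10000 in interneuron-like cells, 28.4 and 28.9 in CA3 and 9.02 and 9.03 in CA1.

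**Figure D3:**
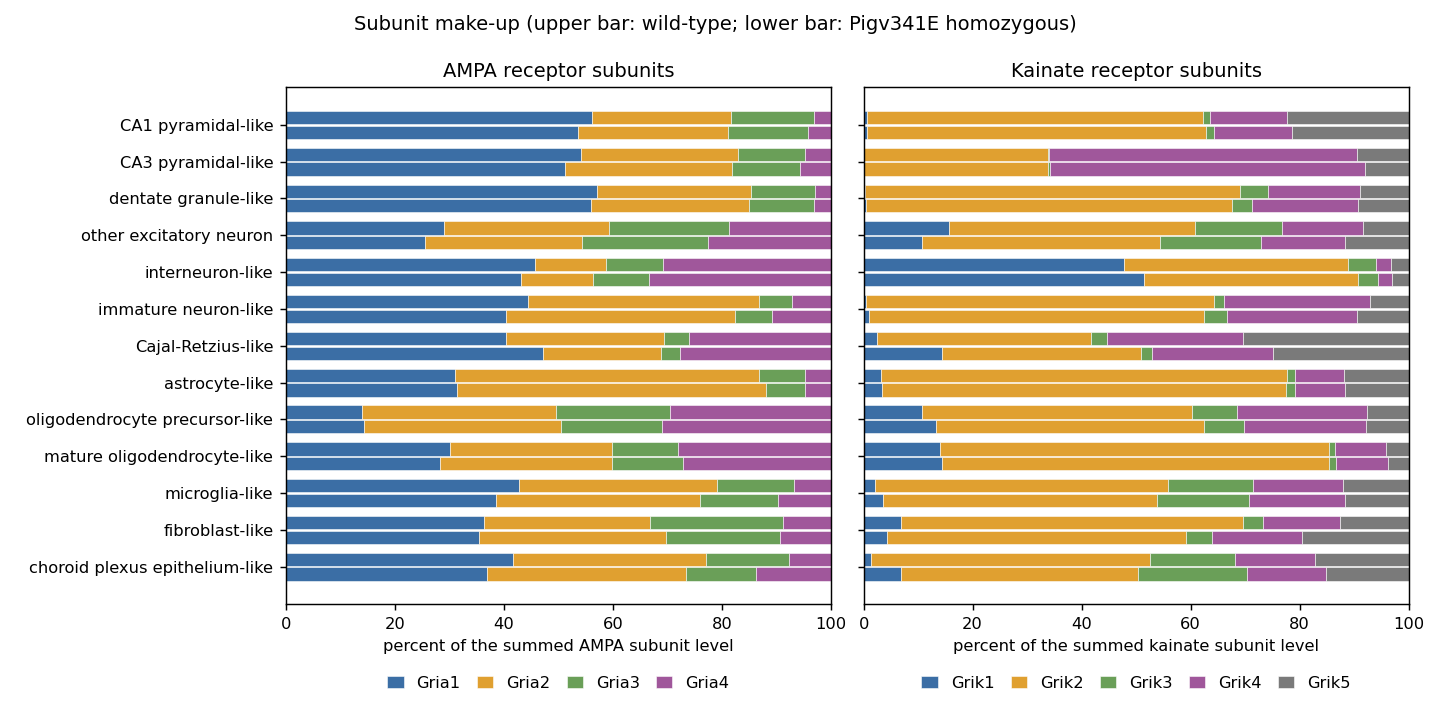
Share of each subunit (horizontal axis, percent) in the summed level of the AMPA subunits (left) and kainate subunits (right) in the 13 classes, with the wild-type bar above the knock-in bar. In CA3 pyramidal-like cells Grik4 takes 56.5% and 57.9% of the kainate sum, and in interneuron-like cells Grik1 takes 47.8% and 51.5%. Gria2 takes 12.98% and 13.3% of the AMPA sum in interneuron-like cells. This is an average over types with 7.75% and 10.1% (Lhx6) and 29.2% and 29.7% (Adarb2), and over cells in neither type, with 14.4% and 13.3%.

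Within the classes, single clusters had make-ups of their own. Clusters are called here by their leading genes, and they were singled out after their values had been seen. The main CA1 pyramidal-like cluster, led by Galntl6 (748 and 741 cells), had 1.01 and 0.997 per 10000 of Gria4 and 0.950 and 0.717 of Grik4. A second CA1-named cluster, led by Pde11a (100 and 273 cells), had 6.36 and 5.50 of Gria4 and 3.61 and 2.85 of Grik4, beside 21.9 and 22.0 of Gria1. A small CA3-named cluster led by Gm32647 (25 and 21 cells) had less Grik4, at 9.06 and 9.24, and more Grik2, at 16.1 and 13.4, than the main CA3 cluster led by Hs3st4.

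Clusters of other excitatory neurons had unlike make-ups. In the Tshz2 cluster, Grik1 reached 10.9 and 8.82 and Grik3 6.49 and 6.61, whereas the cluster led by Gm28928 and Cdh18 had Grik3 at 5.75 and 6.68 but Grik1 at 0.0865 and 0.218. The Sgcz cluster had 1.40 and 2.21 of Gria1, with 9.45 and 8.92 of Gria4 and 6.88 and 7.55 of Grik4. The Unc5d cluster, with 124 and 472 cells, had 7.80 and 10.6 of Gria4. Single clusters weighed on the class: without the Tshz2 cluster Grik1 was 1.27 and 0.778, and without the Sgcz cluster Grik4 was 1.51 and 1.81. A cortical excitatory-like cluster of 20 and 44 cells had still more of it, with 22.4 and 24.1 of Gria4 and 0.648 and 0.688 of Gria1.

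**Figure D4:**
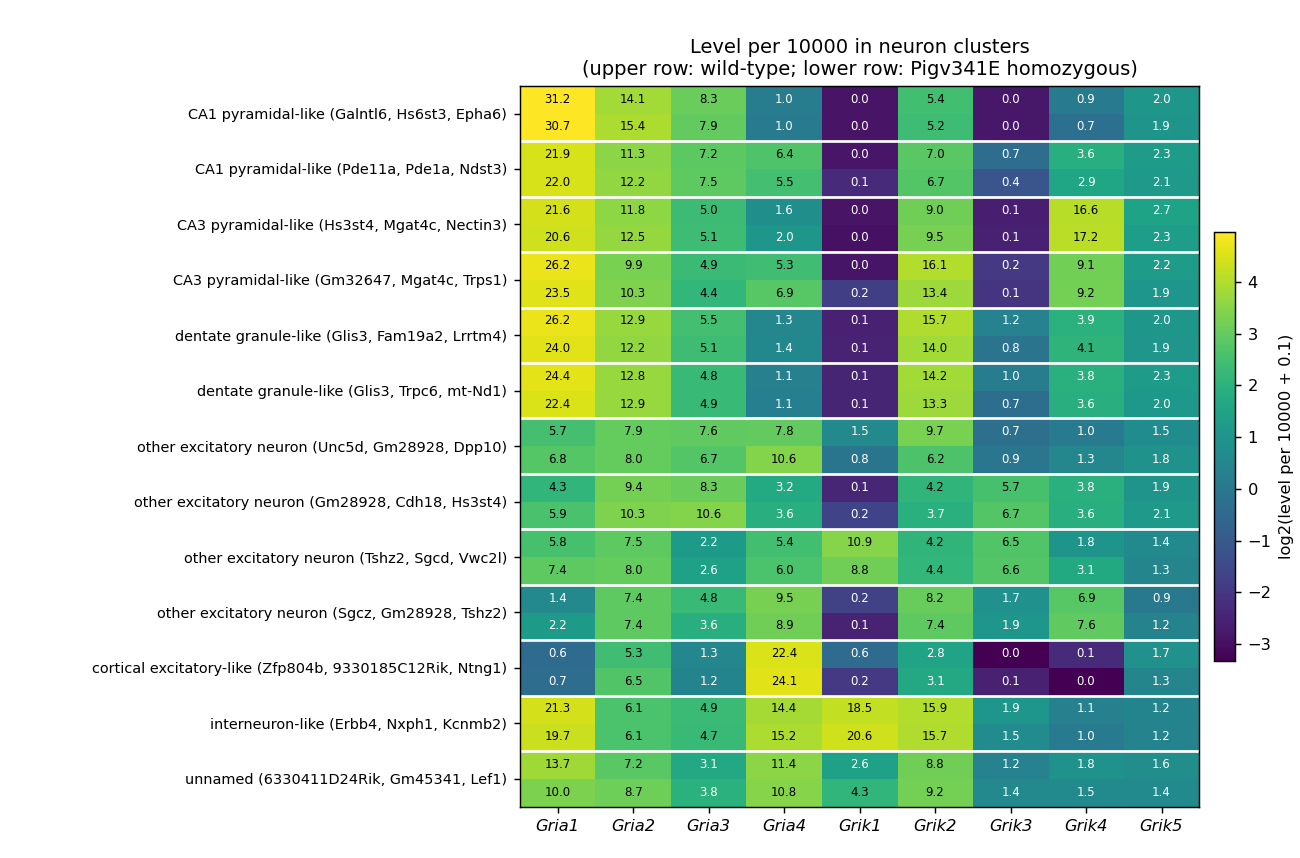
Level per 10000 of the 9 subunits (columns, printed in each field, coloured on a log2 scale) in neuron clusters with at least 20 cells in each library. Clusters are named by class and leading genes, with the wild-type row above the knock-in row, and 1 unnamed cluster is shown last. Not drawn are 1 cluster of other excitatory neurons and the immature neuron-like and Cajal-Retzius-like classes, of 1 cluster each. Grik1 is high in the interneuron-like cluster and in the Tshz2 cluster, Grik4 in the CA3 clusters, and the cortical excitatory-like cluster has the least Gria1 (0.648 and 0.688) and the most Gria4 (22.4 and 24.1) of the clusters drawn.

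Interneuron-like cells were split further, after the data had been seen, into sub-clusters with markers of the Lhx6 lineage (62 and 111 cells) and of the Adarb2 lineage (48 and 54 cells), the major origins of hippocampal inhibitory cells. The other 45 and 90 cells, in 4 of 9 sub-clusters, had too few or mixed markers and are in neither type. The Lhx6 type had 34.0 and 27.5 per 10000 of Gria1, against 7.28 and 7.04 in the Adarb2 type, a difference of 4.67-fold and 3.90-fold. Gria3 was 6.14-fold and 6.99-fold higher in the Lhx6 type, Gria4 2.01-fold and 2.07-fold, and Grik3 3.70-fold and 3.36-fold. The Adarb2 type was higher in Gria2, at 7.65 and 7.48 against 5.25 and 6.17, in Grik2, at 17.1 and 17.9 against 12.3 and 12.9, and in Grik4, at 1.93 and 1.62 against 0.642 and 0.723. Both types carried Grik1, with 19.7 and 20.7 in the Lhx6 and 12.8 and 15.6 in the Adarb2 type. The types were separated in both libraries for every subunit except Grik5. No share over all genes stands beside this count, so it does not single out the subunits. The subunits were no part of the markers, but sub-clusters were made from all other variable genes of the same cells.

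In glia, each subunit was set beside excitatory neuron markers in the same cells, because transcripts from neurons can reach any droplet. The 10 excitatory markers were all above 0 in astrocyte-like cells, at a median of 11.3% and 10.1% of their level in the highest neuron class, with a range of 0.665 to 37.4% and 2.12 to 30.1%. The summed marker level was 6.19 and 5.87 per 10000, against 30.7 and 30.8 in CA1. The 7 interneuron markers were also all above 0, at a sum of 5.03 and 6.71. Gria1 in astrocyte-like cells, at 18.1% and 19.1% of its highest neuron class, lay within that range, and the share of neuronal RNA in it was not tested. Gria2, at 66.3% and 67.1% of its highest neuron class, and Grik2, at 50.9% and 49.1%, lay above every one of the excitatory markers.

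Astrocyte-like cells had 9.73 and 9.71 per 10000 of Gria2, with 90.0% and 92.5% of cells at 2 or more. A second astrocyte-like cluster, led by Myoc with Gfap among its leading genes (67 and 94 cells), had the reverse pattern to the main one. It had 4.22 and 3.48 of Gria2 and 10.4 and 12.3 of Gria1, against 10.5 and 10.6 of Gria2 and 4.70 and 4.34 of Gria1 in the main cluster. The summed excitatory markers were 6.35 and 6.80 in the Myoc cluster and 6.16 and 5.81 in the main cluster, close to each other.

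Oligodendrocyte precursor-like cells, which are known to receive synapses from neurons, held several subunits at more than the level of the excitatory markers. Relative to the highest neuron class, Gria3 reached 67.5% and 63.9%, Gria2 63.9% and 67.1%, Gria4 54.1% and 54.6%, Grik2 70.0% and 71.4% and Grik4 33.5% and 30.6%, against 0.741 to 21.5% and 2.61 to 27.4% over the 10 excitatory markers. Gria1, at 12.2% and 13.6%, lay within the range of the markers. The interneuron markers Gad1 (14.9% and 13.6%), Gad2 (1.03% and 1.68%) and Slc32a1 (4.09% and 3.98%) were lower than Gria4 relative to interneuron-like cells, as were Dlx1, Dlx6os1 and Erbb4 (32.7% and 28.7%). Grik1, at 13.1% and 14.7%, was close to Gad1 and below Erbb4. All 7 interneuron markers were above 0 there, and their sum of 24.5 and 26.1 per 10000 was 28.2% and 25.6% of that in interneuron-like cells. Against mature oligodendrocyte-like cells, the precursors were 2.82-fold and 2.62-fold higher in Gria3, 3.16-fold and 3.16-fold higher in Grik4 and 10.3-fold and 7.13-fold higher in Grik3.

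In mature oligodendrocyte-like cells Grik2 stood out, at 80.9% and 76.6% of the level in the highest neuron class, above the 1.02 to 44.8% and 1.85 to 39.7% of the excitatory markers. Gria2, at 32.5% and 31.6%, and Gria4, at 31.2% and 25.95%, lay within that range, whose top was Prox1 alone. The next marker, Slc17a7 (30.7% and 30.2%), was below Gria2 in both libraries and below Gria4 in the wild-type library only. The share of neuronal RNA in Gria2 and Gria4 was not tested. Grik1 was present in a minority of mature oligodendrocyte-like cells: 37.7% and 40.4% of cells were above 0, and 35.3% and 37.8% were at 2 or more. In microglia-like cells 6.25% and 7.93% were above 0, and in CA1 pyramidal-like cells 4.15% and 5.40%. Of the defining interneuron markers, mature oligodendrocyte-like cells had Gad1 at 0.591% and 1.63%, Gad2 at 0.395% and 0.576% and Slc32a1 at 1.62% and 2.503% of the interneuron level, against 13.6% and 11.8% for Grik1. Of the other markers in the list of 7, Dlx1 (1.04% and 1.24%) and Dlx6os1 (0.254% and 0.380%) were also below Grik1, whereas Erbb4 (24.2% and 19.9%) was above it. The 7 summed to 19.9% and 17.1% of the interneuron level, most of it Erbb4, at 16.5 and 16.4 of 17.3 and 17.4 per 10000. The share of neuronal RNA in Grik1 was not tested. The Grik1 level differed among clusters of the class. It was 5.06 and 4.59 per 10000 in the larger cluster led by Prr5l (446 and 378 cells) and 1.48 and 1.70 in the one led by Pde4b (987 and 1030 cells). In the one led by Cnksr3 (30 and 21 cells) it was 0.293 and 0.353. That cluster had 26.2 and 22.5 of Grik2. Clusters led by Prr5l (30 and 54 cells) and Fth1 (16 and 23 cells) are not listed.

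In microglia-like cells Gria1 and the excitatory markers had the same order of clusters, while Grik3 had another. Gria1 was 2.26 and 2.53 per 10000 in the cluster led by C1qa, 7.32 and 6.60 in the Inpp5d cluster and 15.5 and 9.50 in the Cst3 cluster. The excitatory markers without Mef2c, a gene that microglia express themselves, summed to 2.57 and 3.05, 8.34 and 7.96, and 13.1 and 11.7 in the same clusters. Grik3, at 1.13 and 0.886 in the class, was 1.19 and 1.01 in the C1qa cluster, where these markers were lowest, 0.244 and 0.228 in the Inpp5d cluster and 2.16 and 2.33 in the Cst3 cluster. All 10 excitatory markers were above 0 in each of these clusters. The share of neuronal RNA in these levels was not tested.

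Genes with a class profile most like each subunit were sought by the Pearson correlation of log2(level + 0.1) over the 13 classes, as the mean of both libraries, among 5276 genes. Gria2 and Grik5 were near neighbours, at r = 0.92, and were the only members in each other's first 3 places. Gria3 came closest to Lrfn2, which encodes a synaptic adhesion protein (r = 0.95), Gria1 to Clvs1 (0.92), and Gria4 to Kctd8, an auxiliary subunit of GABA-B receptors (0.94). Grik1 came closest to the receptor kinase gene Alk (0.87), Grik2 to Tmem132b (0.87), Grik3 to Sgcz (0.84) and Grik4 to Ppp1r14c (0.81). Among the members, Gria2 and Grik1 had the lowest correlation, at -0.27. The classes share libraries and differ in number of cells, so these values are descriptions.

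The knock-in and wild-type libraries were then compared within each class by the log2 ratio of the levels, with 0.1 per 10000 added to both, which understates the change of low genes. A pair of a gene and a class was eligible when 1 library had a level of at least 1 per 10000 and at least 10% of its cells above 0. It was called past the size rule at a ratio of at least 1.5-fold, a rule that describes these libraries and has no error rate. Of the 117 pairs of a subunit and a class, 92 were eligible, and 25 fell below the limits, mostly Grik1 and Grik3 outside the classes where they are high. Of the 92, 2 pairs, or 2.17%, were past this limit (1 higher, 1 lower). This stood against 5.5% of 27176 eligible pairs of all genes (2.45% higher and 3.04% lower). Of the 1494 called pairs behind the 5.5%, 587 lay in choroid plexus epithelium-like cells alone, and the background was not matched to the classes of the 92 pairs. Past 2-fold the count was 1, or 1.09%, against 0.949%.

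Across all cells, 8 subunits were eligible and 0 were past the rule, against 1.11% of 2075 genes, with ratios from -0.22 to 0.28. The median over the 92 pairs was -0.06, where the medians of all eligible genes lay between -0.18 and 0.00 from class to class. Ratios were above the class median in 51 pairs and below it in 41. In the CA1, CA3, dentate and interneuron-like classes, the 31 eligible ratios ran from -0.50 to 0.41.

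The pair called lower was Grik1 in other excitatory neurons, with a log2 ratio of -0.76 from levels of 2.72 and 1.56 per 10000. In this class 4.99% of eligible genes were called in either direction and 1.96% lower. Cells above 0 made up 30.1% (interval 26.3 to 34.0%) and 22.0% (19.6 to 24.6%), with 6.25% and 7.93% in microglia-like cells. The clusters of this class were filled unequally by the libraries, since the Unc5d cluster held 124 of 569 wild-type cells but 472 of 1077 knock-in cells. With equal cluster weights in both libraries the ratio was -0.47, no longer past the rule. Taken alone, 4 of the clusters gave -0.76 (Unc5d), -0.30 (Tshz2), -0.83 (Sgcz, where Grik1 was low in both libraries) and 0.77 (Gm28928 and Cdh18, at 0.0865 and 0.218 per 10000).

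The pair called higher was Gria4 in choroid plexus epithelium-like cells, at 0.584 and 1.30 per 10000, a log2 ratio of 1.03. It was eligible only through the knock-in library, since the wild-type level of the class was below 1 per 10000. This class had 102 and 88 cells, and 27.8% of its eligible genes were called in either direction and 7.87% higher. Gria4 was above 0 in 37 wild-type and 42 knock-in cells, with highest values of 6 and 17. The cluster led by Ttr had 0.952 and 1.27, and the one led by Htr2c, with 40 and 21 cells, had 0.0771 and 1.38. In the latter, 3 of 40 wild-type cells and 8 of 21 knock-in cells were above 0, and without the cell of value 17 the level was 0.570. Without that cell the ratio of the class was 0.82.

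Gria4 was the subunit most often higher in the knock-in library, in 10 of its 12 eligible classes. Choroid plexus epithelium-like cells, among these 10, were eligible only through the knock-in library. In classes of 1 cluster the log2 ratio of Gria4 was 0.46 in immature neuron-like and 0.10 in oligodendrocyte precursor-like cells. It was 0.09 in interneuron-like and 0.06 in Cajal-Retzius-like cells. Fibroblast-like cells, also 1 cluster, went the other way, with Gria4 at 1.19 and 1.13 per 10000. Mature oligodendrocyte-like cells, of several clusters, had the lowest ratio, at -0.18. In the CA3 clusters the ratio was 0.28 (Hs3st4) and 0.37 (Gm32647). In CA1 pyramidal-like cells Gria4 was 1.63 and 2.21 per 10000, a log2 ratio of 0.41. The main CA1 cluster had 1.01 and 0.997 and the Pde11a cluster 6.36 and 5.50, and the latter held 100 of 867 wild-type but 273 of 1038 knock-in cells. With equal cluster weights the ratio was -0.12. In other excitatory neurons Gria4 was 5.62 and 7.30, a ratio of 0.37, and 0.27 with equal weights. Without the Unc5d cluster the levels were 5.02 and 4.73.

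Grik3 was lower in the knock-in library in all 5 classes where it was eligible, with log2 ratios from -0.50 in dentate granule-like cells to -0.03 in other excitatory neurons. Of these, the dentate granule-like and microglia-like classes reached the limit of 1 per 10000 in the wild-type library only. Their eligibility thus rested on the library where Grik3 was higher. In the dentate class Grik3 was above 0 in 61.9% of the 1401 wild-type cells (interval 59.3 to 64.4%) and in 51.6% of the 1387 others (48.9 to 54.2%). Its level was 1.17 and 0.797 per 10000. This ratio lay outside the middle 95% of all eligible genes of the class, which ran from -0.29 to 0.31, but not past the size rule, where 0.202% of the genes of the class were past it in this direction. With each value of 1 set to 0, the ratio was -0.73. Below the limits of the rule, in immature neuron-like cells, Grik3 was at 0.409 and 0.849. Ratios outside the middle 95% of their class numbered 5 of 92, or 5.43%, among them the pairs already named and Gria1 and Grik2 in microglia-like cells.

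In microglia-like cells the 7 eligible subunits had a median log2 ratio of -0.37, beside -0.11 over all eligible genes, with Gria1 at -0.56 and Grik2 at -0.53. Here 1.48% of genes were past the size rule, with 0.783% lower, and no subunit was. The Cst3 cluster, the richest in these excitatory markers, held 176 of 640 wild-type cells but 117 of 832 knock-in cells. With equal cluster weights the ratios were -0.32 for Gria1 and -0.27 for Grik2. Without the cells that Scrublet called doublets (61 wild-type and 209 knock-in cells in all), they were -0.74 and -0.61, past the rule. The excitatory markers without Mef2c summed to 7.04 and 5.86 per 10000 in the class, and their part in these ratios was not tested.

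**Figure D5:**
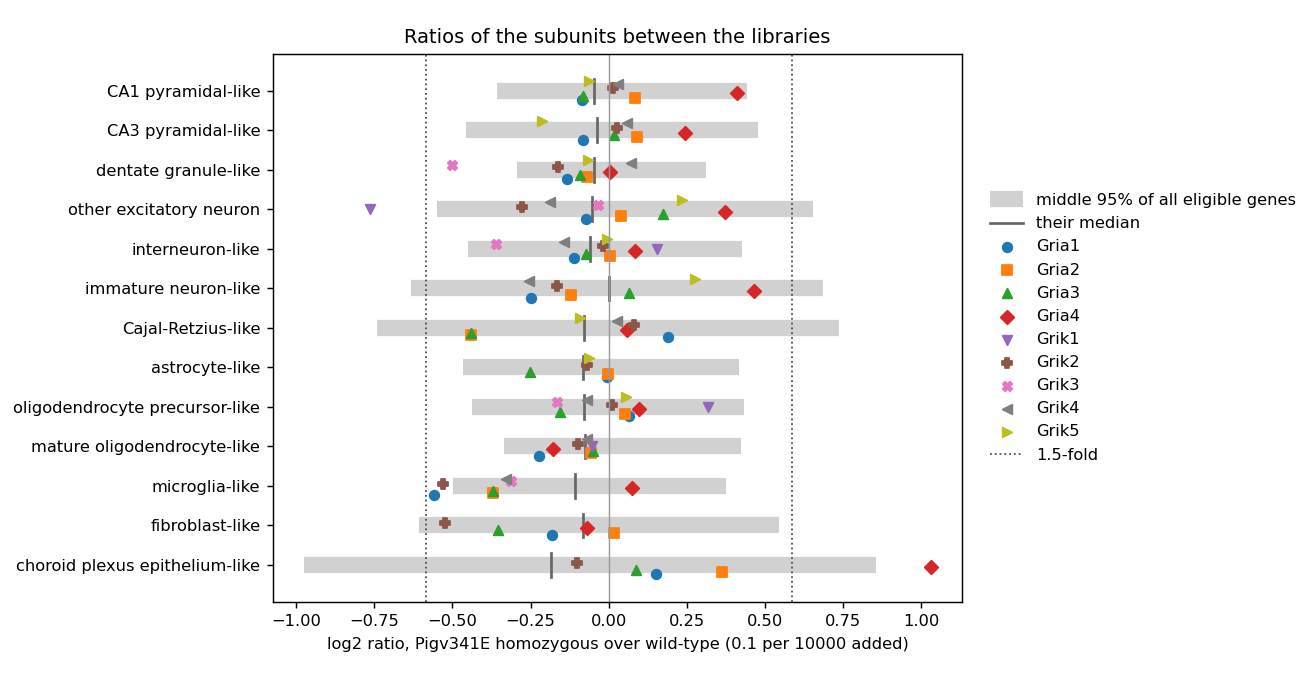
Log2 ratio of the knock-in over the wild-type level (horizontal axis) of each eligible subunit in the 13 classes, with a grey band for the middle 95% of all eligible genes of the class, a dark tick for their median and dotted lines at 1.5-fold. Of 92 symbols, 2 lie beyond the dotted lines: Grik1 in other excitatory neurons (-0.76) and Gria4 in choroid plexus epithelium-like cells (1.03).

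The proteins that work with the receptors were followed in 4 lists with 36 genes. AMPA receptor auxiliary and assembly proteins gave 52 eligible pairs of 208, with 2 higher and 2 lower. The kainate receptor auxiliary proteins Neto1 and Neto2 gave 8 of 26, with 0 called. Scaffold and trafficking proteins gave 73 of 208, with 1 higher and 4 lower, and the editing enzymes Adar and Adarb1 gave 5 of 26, with 0 called. Together 9 of 138 eligible pairs, or 6.52%, were past the 1.5-fold rule, beside the 5.5% of all pairs, and 0 past 2-fold.

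Among auxiliary proteins of AMPA receptors, Cacng8, the hippocampal TARP gamma-8, was at 3.63 and 3.40 per 10000 in CA1, 2.66 and 2.48 in CA3 and 2.76 and 2.80 in dentate granule-like cells, above 1.28 and 1.24 in interneuron-like cells. Shisa6 was highest in CA3 pyramidal-like cells, at 10.7 and 11.9. Shisa9 was highest in dentate granule-like cells, at 8.57 and 6.96, and Cnih3, a cornichon protein of receptor export, had 3.70 and 3.36 there against 0.196 and 0.423 in CA3. Cacng4, chosen after its values were seen, had 6.92 and 7.37 in oligodendrocyte precursor-like cells and at most 0.587 in any neuron class. These genes thus peaked in different classes.

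For kainate receptors, the auxiliary subunit gene Neto1 was highest in CA3 pyramidal-like cells, at 5.61 and 6.71 per 10000, the class with most Grik4, followed by interneuron-like cells at 4.04 and 3.72. CA1 pyramidal-like cells had 0.925 and 1.11 of Neto1. Neto2 was at most 1.16 in any neuron class, with 0.948 and 0.965 in CA3. Of the editing enzymes, Adarb1, the source of ADAR2, was at 2.25 and 2.13 in CA3, 1.68 and 1.46 in dentate granule-like cells and 0.578 and 0.586 in CA1, and Adar was at 0.752 and 0.661 in CA3 and 0.664 and 0.623 in CA1.

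Scaffold genes were led by Dlg2, the source of PSD-93, at 54.5 and 51.1 per 10000 in CA1 and 9.02 and 7.48 in astrocyte-like cells. Grip1, whose protein binds GluA2 and GluA3, stood out in interneuron-like cells, at 50.5 and 40.1 against 3.12 and 3.55 in CA1. Nsf, which disassembles membrane fusion complexes, was highest in dentate granule-like cells, at 10.1 and 9.55. Dlg1, the source of SAP97, had 8.32 and 8.08 in mature oligodendrocyte-like cells and 1.01 and 1.15 in CA1.

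Of the 9 called pairs, 1 lay in a pyramidal class: Shisa9 in CA1, at 0.922 and 1.46 per 10000, a log2 ratio of 0.61, where 1.7% of genes were called higher. The others lay in classes with 60 to 245 cells in a library. In Cajal-Retzius-like cells, where 4.19% of genes were called higher and 5.69% lower, Cpt1c was higher (0.67) and Nsf (-0.78), Gripap1 (-0.66) and Epb41l1 (-0.60) were lower. In immature neuron-like cells, where 4.51% were called higher and 2.96% lower, Grip1 was higher (0.65) and Shisa9 lower (-0.70). In fibroblast-like cells, where 3.04% were called lower, Grip1 (-0.63) and Shisa9 (-0.59) were lower.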

How the data were processed

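Transcripts of single cells were measured with 10x Genomics v3 droplet libraries. The authors deposited 1 table of whole-number values, which was treated as a score and not as counts: totals per cell were too alike for raw counts, and the name of the table is that of a depth-corrected assay. Per the submitters' processing notes, Seurat 3.0.0 and GRCm38 were used; the aligner and cell filter are not given in the sources used here. No count model was fitted.

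Cells were scaled to 10000, log-transformed and clustered (scanpy 1.11.5, igraph 0.11.9, Python 3.11.15; 2000 variable genes, 30 principal components, 15 neighbours, Leiden resolution 1). The subunits, pathway lists and sex-linked genes were left out of clustering. A marker counted at 25% of cells above 0 and 1.5-fold over other cells; a name needed 3 markers and no rival class, and this rule was set after clusters had been seen. No cell was removed in the values reported; Scrublet (expected rate 6%) called 61 wild-type and 209 knock-in doublets.

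The members and gene lists were chosen with earlier results of these data known. Named were all 9 members, list genes past the size rule or among the 4 highest of a list in neurons, and for each member the 3 genes of most similar profile. The size rule was tested on simulated data. Shares have exact 95% Clopper-Pearson intervals. Alternatives changed the cells, values of 1, cluster settings and weights, scaling, pseudocount (0.01 and 0.5) and limits. Sequences and positions are from GENCODE M21 (GRCm38). The values of 1 cluster of other excitatory neurons and of 1 of the 7 interneuron markers are not reported here on their own.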

Additional observations from a re-analysis of the deposited data

How the results depend on the processing

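No paired analysis was possible because each genotype is 1 library. Of the 18 highest classes (9 subunits in 2 libraries), between 16 and 18 were the same under each of the 8 alternatives that changed levels, with 16 at Leiden resolution 2 and with 15 principal components. The count of subunit and class pairs past the 1.5-fold rule and higher in the knock-in library, 1 as reported, was 2 with values of 1 set to 0, 2 with 15 principal components and 3 with no minimum level. The count of lower pairs, also 1, was 5 without the Scrublet doublets, 5 with values of 1 set to 0 and 0 with equal cluster weights. Added without the doublets were Gria3 in Cajal-Retzius-like cells (-0.64), Gria1 (-0.74) and Grik2 (-0.61) in microglia-like cells and Grik2 in fibroblast-like cells (-0.59); the cause was not tested. Of list genes, 3 higher and 6 lower pairs became 0 and 0 at 2-fold and 13 and 16 with no minimum level. Grik1 was reversed in the Gm28928 and Cdh18 cluster of other excitatory neurons taken alone, at 0.77. Between 0 and 11 of the 92 ratios changed sign under an alternative. With Leiden resolution 2, Gria2 made up 14.9% and 18.1% of the AMPA sum in interneuron-like cells. The alternatives by cluster, by interneuron type and without 1 cell were chosen after seeing the data. Depth-corrected values hide the depth of each cell, and with 1 pooled library per genotype the variation between mice is unknown.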

Other observations

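Small classes, with fewer than 50 cells in a library, were left out of the comparisons and are given as values only. Endothelial-like cells (25 and 43 cells in the wild-type and knock-in library) had 7.45 and 7.17 per 10000 of Gria2 and 6.31 and 7.52 of Gria1. Cells like pericytes and smooth muscle (27 and 48) had 7.01 and 8.23 of Gria1 and 4.65 and 4.72 of Grik2. Perivascular macrophage-like cells (24 and 41) had 3.97 and 3.92 of Gria1 and 1.52 and 1.08 of Grik3. Ependymal-like cells (18 and 14) had 5.17 and 5.87 of Grik2 and 3.21 and 2.15 of Grik4, and their Gria4 level was 0.489 and 3.55.

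An unnamed cluster led by 6330411D24Rik and Lef1 (73 and 212 cells) carried 11.4 and 10.8 per 10000 of Gria4, 13.7 and 9.97 of Gria1 and 2.595 and 4.28 of Grik1.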
